A study of Mus musculus with 6 samples.

Results

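The genes examined here encode chromatin modifiers and remodellers: enzymes that write or erase histone and DNA methylation and histone acetylation, ATP-dependent remodellers, and proteins that read these marks. NF-YA peaks in cultured mouse muscle stem cells (MuSCs) were taken when the symbol of their annotated gene belonged to 1 of these families by name (*Kat*, *Kansl*, *Hdac*, *Sirt*, *Kmt*, *Setd*, *Prmt*, *Kdm*, *Chd*, *Smarc*, *Arid*, *Brd*, *Phf*, *Ing*, *Cbx*, *Mbd*, *Dnmt*, *Tet* and related stems). The rule itself uses names only and no measured value. It gave 99 peaks at 69 genes, out of 9056 peaks in all, of which 5146 carried a gene symbol. All 69 genes are protein-coding, and 2 of them, *Sirt4* and *Smarcal1*, encode a mitochondrial sirtuin and a DNA-annealing helicase that are not known as chromatin modifiers.

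The study profiled NF-YA by CUT&RUN, in which an antibody guides a nuclease to its target in permeabilised cells and the released DNA is sequenced. The cells were wild-type MuSCs of C57BL/6 mice, grown in culture and labelled as activated and proliferating, so they do not represent quiescent cells in the muscle. There were 6 samples of this same strain, genotype and cell state: 3 treated with the NF-YA antibody and 3 with mouse IgG. The 3 NF-YA libraries are described below, and the 3 IgG libraries, used by the authors in calling peaks, were not analysed here. The levels below are therefore printed without any IgG background removed, which weighs most on weak peaks. The study calls the replicates biological. Mouse age is not given in the labels, while the study states a range of ages for its adult male and female mice as a whole. The cell type could not be checked against marker expression, because the assay reads DNA occupancy and no RNA.

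NF-Y is a trimer of NF-YA, NF-YB and NF-YC. NF-YA makes the contacts with the CCAAT box, while NF-YB and NF-YC carry histone-like folds. CCAAT boxes are typically found a short way upstream of the transcription start site (TSS) of widely expressed and cell cycle genes. Among the genes named here, *Kansl2* encodes a subunit of the NSL complex, in which the acetyltransferase MOF acetylates histone H4, and NF-YA at *Kansl2*, *Mbd3* and *Prmt1* was a question of the study.

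The sequences below show CCAAT boxes under promoter peaks, most of them strong. Each runs over the CCAAT boxes of 1 peak that lie between 300 and 10 bp upstream of the TSS, with up to 10 bases on either side, in the direction of transcription. For each role, the strongest promoter peak whose stretch touched no untranslated region was taken, with *Setd5* and *Kmt5a* as further methyltransferases. The *Kat7* stretch comes from the weaker of its promoter peaks, which held 9, 16 and 10 normalised reads in the 3 libraries. Capitals mark the box, CCAAT where it reads along the gene and ATTGG where it lies on the other strand. Sequence and coordinates are from the RefSeq assembly GRCm38.p6 (mm10).
*Kmt5c*, chr7:4739847-4740064, plus strand, -268 to -51 bp from the TSS: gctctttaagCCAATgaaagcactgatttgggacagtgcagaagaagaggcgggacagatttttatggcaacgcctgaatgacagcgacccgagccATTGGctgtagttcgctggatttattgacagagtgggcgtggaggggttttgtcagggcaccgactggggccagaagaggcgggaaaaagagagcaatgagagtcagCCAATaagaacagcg
*Setd5*, chr6:113077239-113077309, plus strand, -126 to -56 bp from the TSS: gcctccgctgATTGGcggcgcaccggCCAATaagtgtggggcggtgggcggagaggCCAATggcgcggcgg
*Kmt5a*, chr5:124439697-124439910, plus strand, -233 to -20 bp from the TSS: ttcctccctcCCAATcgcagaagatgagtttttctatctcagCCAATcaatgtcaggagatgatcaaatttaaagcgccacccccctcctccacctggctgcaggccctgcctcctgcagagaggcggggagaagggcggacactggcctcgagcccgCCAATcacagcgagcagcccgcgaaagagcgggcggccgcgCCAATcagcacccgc
*Kdm4a*, chr4:118180060-118180084, minus strand, -41 to -17 bp from the TSS: gtgagtgttcATTGGttagctgagg
*Prmt1*, chr7:44986597-44986835, minus strand, -267 to -29 bp from the TSS: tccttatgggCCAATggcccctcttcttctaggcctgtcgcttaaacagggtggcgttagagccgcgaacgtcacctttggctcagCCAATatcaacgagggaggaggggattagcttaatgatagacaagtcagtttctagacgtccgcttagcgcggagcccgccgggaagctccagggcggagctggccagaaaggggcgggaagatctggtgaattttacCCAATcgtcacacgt
*Kansl2*, chr15:98534305-98534361, minus strand, -97 to -41 bp from the TSS: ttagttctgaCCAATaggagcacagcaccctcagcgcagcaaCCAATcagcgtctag
*Kat7*, chr11:95310324-95310348, minus strand, centred -90 bp from the TSS: cgtctcctgcCCAATtccaaaatgg
*Hdac1*, chr4:129542766-129542790, minus strand, -77 to -53 bp from the TSS: gcgcatgccgATTGGttagagtgag
*Chd6*, chr2:161109094-161109263, minus strand, -188 to -19 bp from the TSS: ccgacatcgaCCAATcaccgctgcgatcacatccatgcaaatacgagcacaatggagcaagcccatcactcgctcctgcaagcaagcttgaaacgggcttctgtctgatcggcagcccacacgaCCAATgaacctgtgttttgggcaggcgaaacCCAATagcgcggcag
*Arid4a*, chr12:71015682-71015979, plus strand, -308 to -11 bp from the TSS: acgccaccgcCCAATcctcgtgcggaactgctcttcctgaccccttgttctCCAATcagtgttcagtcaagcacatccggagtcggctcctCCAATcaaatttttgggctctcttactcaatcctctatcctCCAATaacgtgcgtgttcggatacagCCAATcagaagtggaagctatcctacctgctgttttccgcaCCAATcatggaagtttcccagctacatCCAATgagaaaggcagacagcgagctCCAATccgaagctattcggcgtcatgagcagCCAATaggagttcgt
*Phf12*, chr11:77982507-77982623, plus strand, -247 to -131 bp from the TSS: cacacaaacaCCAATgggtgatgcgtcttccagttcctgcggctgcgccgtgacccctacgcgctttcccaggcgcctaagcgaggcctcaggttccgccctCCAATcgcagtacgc
*Cbx5*, chr15:103239862-103239886, minus strand, -70 to -46 bp from the TSS: caagcccaggATTGGttgcgcaggc
*Mbd3*, chr10:80399611-80399788, minus strand, -238 to -61 bp from the TSS: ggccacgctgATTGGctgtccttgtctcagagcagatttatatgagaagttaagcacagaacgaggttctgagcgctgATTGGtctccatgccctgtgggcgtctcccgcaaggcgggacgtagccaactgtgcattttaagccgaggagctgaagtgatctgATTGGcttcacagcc

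The arrangement of boxes differed between these promoters. *Arid4a* held 9 boxes in the printed 298 bases, all on the gene strand, with neighbouring boxes 26 to 41 bp apart. The 3 boxes of *Mbd3* were all on the other strand. *Kmt5a* held 4 boxes, *Chd6* 3 and *Kansl2* 2, each set on the gene strand only. In *Kmt5c* and *Setd5* both orientations occurred. *Kdm4a*, *Cbx5*, *Hdac1* and *Kat7* had a single box in this range, and at *Kdm4a*, *Cbx5* and *Kat7* further boxes lay elsewhere in the peaks of the gene.

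**Figure D1:**
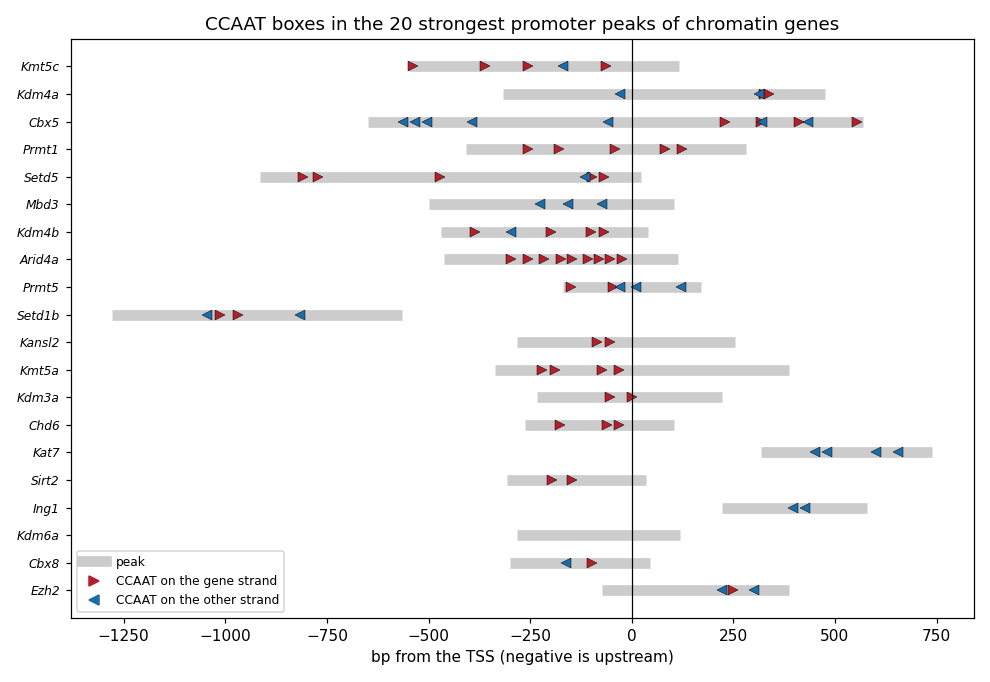
Positions of CCAAT boxes (triangles, pointing along the strand that reads CCAAT) in the 20 promoter peaks of chromatin genes with the most normalised reads, against distance from the TSS in bp, with each peak drawn as a grey bar. *Arid4a* shows 9 boxes on the gene strand, *Mbd3* 3 on the other strand, and *Kdm6a* none.

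The level of a peak is given in normalised reads: reads in the peak divided by a size factor of its library and rounded to whole numbers by the authors. These values are not corrected for peak length. Strong and weak below refer to normalised reads, and the order per kb of peak, which differs in part, is given after the roles. A normalised read stood for a different number of reads in each library, since 1 read was worth 0.670, 1.48 and 1.02 normalised reads in the libraries of replicates 1, 2 and 3. The median chromatin gene peak thus held about 39, 19 and 32 reads. At 3 reads or fewer, here taken as the floor, were 1, 9 and 3 of the 99 peaks. Across the 99 peaks, Pearson's r on log2(value + 1) lay between 0.946 and 0.948 for the 3 pairs of libraries. Per the study's reporting summary, replicate 1 had shorter reads than the other 2 libraries, and whether this touched any value was not tested. That summary also lists the most peaks for replicate 1 among the 3 libraries. In how many libraries each peak was called was not examined, so a peak here need not have been called in all 3.

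NF-YA peaks were found at 69 of the 182 annotated protein-coding genes that the name rule covers (37.9%, 95% Wilson interval 31.2 to 45.1), where 19.0% of all 21938 protein-coding genes had a peak. A peak with its centre within 1000 bp of the 5' end of the gene, called a promoter peak here, was present at 54 of the 182 genes (29.7%, interval 23.5 to 36.7), against 14.8% of all protein-coding genes. Genes without a peak are those at which the authors' peak calling and annotation to the nearest gene listed none. Of the 182 genes, 9 are not known as chromatin modifiers, and without them 67 of 173 genes had a peak (38.7%). That smaller set was chosen after the values were seen. How many of the protein-coding genes are expressed in MuSCs was not examined, and its part in the higher share at chromatin genes was not tested.

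Roles were assigned by gene name, not by tested activity. They were represented unevenly, but each holds few genes. Peaks were listed at 12 of 25 demethylases, 12 of 27 lysine methyltransferases, 11 of 26 remodellers, 9 of 25 PHD finger and ING genes and 6 of 18 deacetylases. Smaller sets gave 5 of 16 DNA methylation genes, 4 of 7 other ARID genes, 3 of 8 chromobox genes and 2 of 10 acetyltransferases. They also gave 2 of 8 arginine methyltransferases, 2 of 4 genes named *Kansl* and 1 of 8 genes named *Brd*. The *Kansl* count includes *Kansl1l*, which is not among the 9 NSL genes given below. The *Brd* count includes *Brd3os*, which was taken in by its name only. Genes not known as chromatin modifiers were also counted, such as *Jmjd4*, *Jmjd7* and *Jmjd8* among demethylases and *Setd3* among lysine methyltransferases.

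**Figure D2:**
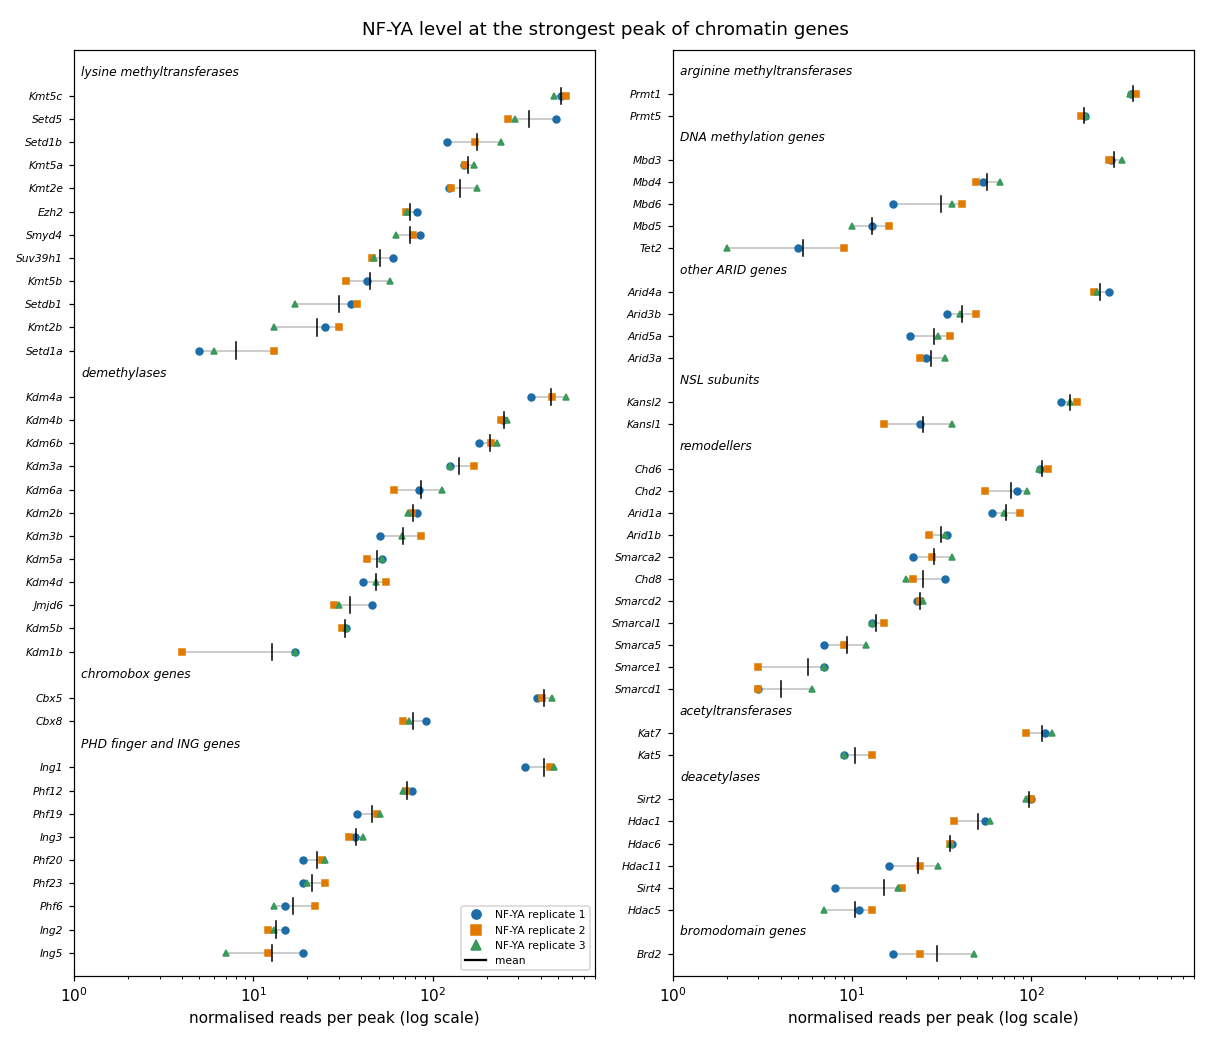
Normalised reads on a log scale at the strongest peak of 68 of the 69 genes, in NF-YA replicates 1 (circles), 2 (squares) and 3 (triangles), with the mean as a black tick and genes grouped by role. In normalised reads *Kmt5c* has the highest mean, with values of 474 to 554, and *Smarcd1* has the lowest mean of those drawn, with values of 3 to 6.

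Among lysine methyltransferases, the peak with the most normalised reads was at *Kmt5c*, whose product makes H4K20me3, a mark of heterochromatin. Normalised reads there were 520, 554 and 474, in the order of replicates 1, 2 and 3 used throughout (516 ± 40.1, SD, n = 3), with its centre 216 bp upstream of the TSS. The 3 libraries lay close together here. *Setd5*, a SET domain protein, had 485, 263 and 286 normalised reads (345 ± 122, n = 3), so that replicate 1 stood 1.77-fold above the mean of the other 2 libraries. Its peak centre lay 445 bp upstream and within 1000 bp of a transcript start of *Gt(ROSA)26Sor*, a noncoding gene. *Setd1b*, an H3K4 methyltransferase of a COMPASS complex, varied in the other direction, with 120, 171 and 241 normalised reads at 922 bp upstream of the TSS.

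The other lysine methyltransferases with a peak had means of 8 (*Setd1a*) to 157 (*Kmt5a*) normalised reads at their strongest peak. *Kmt5a*, which makes H4K20me1, had 149, 151 and 170 at its promoter, and *Kmt5b*, a further H4K20 methyltransferase, had 43, 33 and 58 in an intron, 421 bp from another start of the gene. Both were picked after their values were seen. In the *Kmt2* family, which methylates H3K4 except for the SET domain protein *Kmt2e*, peaks were listed at *Kmt2b* and *Kmt2e* and at none of *Kmt2a*, *Kmt2c* and *Kmt2d*. The main *Kmt2e* peak held 123, 126 and 176 normalised reads and lay 1131 bp upstream, just outside the promoter limit. Of the 3 peaks of this family, 0 had a CCAAT box within 50 bp of the centre, although the main *Kmt2e* peak contained 2 boxes farther out. *Kmt2b*, with 25, 30 and 13 normalised reads, contained none.

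Demethylases gave 19 peaks at 12 genes, the most peaks of any role. *Kdm4a*, which demethylates H3K9 and H3K36, had 354, 462 and 550 normalised reads (455 ± 98.2, n = 3) in a peak spanning its TSS. Its paralog *Kdm4b* had 246, 239 and 258 (248 ± 9.61, n = 3). The spread between libraries was thus far wider at *Kdm4a* than at *Kdm4b*. *Kdm4c* had no peak, and *Kdm4d* had 41, 55 and 48. *Kdm6a*, an H3K27 demethylase, had 84, 61 and 113 normalised reads at its promoter, the most normalised reads among member peaks without a CCAAT box.

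*Kdm6b*, the other H3K27 demethylase, had 6 peaks, more than any other chromatin gene. None lay within 1000 bp of a start of the gene. The strongest, 4836 bp into the gene in an intron, held 181, 211 and 229 normalised reads (207 ± 24.2, n = 3) and 4 CCAAT boxes. The next, 5337 bp upstream, held 139, 180 and 127 (149 ± 27.8, n = 3) and 2 boxes, so all 3 of its values lay below those of the intronic peak. Per kb of peak they did not differ beyond their spread, at 357 ± 66.8 upstream and 354 ± 41.5 in the intron. The other 4 *Kdm6b* peaks had means of 5.67 to 25 normalised reads. About 50.4% of the normalised reads of the gene fell into the strongest peak.

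Both arginine methyltransferases with peaks had strong, even promoter peaks. *Prmt1*, which carries out most asymmetric dimethylation of arginine in cells, had 361, 384 and 354 normalised reads (366 ± 15.7, n = 3) in a peak with 5 boxes, 64 bp upstream of the TSS. *Prmt5*, which makes symmetric dimethylarginine, had 200, 189 and 202 (197 ± 7, n = 3), with the peak centred on the TSS and also holding 5 boxes. *Prmt1* had 2 further peaks with means of 61.3 and 19.3 normalised reads inside the gene. The other 6 *Prmt* genes had no listed peak.

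Among acetyltransferases, 2 of 10 genes (20%) had a listed peak, close to the share of all protein-coding genes, and peaks at inner starts of *Kat6b* and *Kat2b* carried no symbol. *Kat7*, which acetylates histones H3 and H4, had 119, 93 and 131 normalised reads in an intronic peak 529 bp downstream of its 5' end and 115 bp from another start. *Kat5*, the enzyme TIP60, had 9, 13 and 9. Among the 9 genes of the NSL complex, peaks were listed at *Kansl1*, *Kansl2* and *Phf20* and not at *Kansl3*, *Kat8* (MOF), *Mcrs1*, *Wdr5*, *Hcfc1* or *Ogt*. *Kansl2* had 147, 180 and 164 normalised reads (164 ± 16.5, n = 3), centred 15 bp upstream of the TSS, with both boxes of the peak printed above, and a second peak farther upstream had 16, 13 and 16. *Kansl1*, a scaffold of the complex, had 24, 15 and 36, and *Phf20*, a reader subunit, had 3 peaks with means of 9.33 to 22.7. The *Kansl2* promoter peak lay above every peak of *Kansl1* and *Phf20* in normalised reads in all 3 libraries, and at 305 normalised reads per kb it ranked 15 among the 99 peaks.

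Peaks listed under a deacetylase symbol were modest. *Sirt2*, which deacetylates tubulin and histone H4, had 99, 100 and 93 normalised reads at 135 bp upstream of its TSS, within 1000 bp of a start of *Nfkbib*. *Hdac1*, a class I enzyme of the NuRD and Sin3 complexes, had 55, 37 and 59. *Hdac6*, a mainly cytoplasmic tubulin deacetylase, had 36, 35 and 35. *Hdac11* had 16, 24 and 30, and *Hdac5* had 11, 13 and 7 at its promoter, so the 4 *Hdac* genes with peaks of 11 all had promoter peaks. *Hdac2*, *Hdac3*, *Hdac4*, *Hdac7*, *Hdac8*, *Hdac9* and *Hdac10* had no listed peak. A stronger peak near an inner start of *Hdac4*, with 198, 219 and 222, carried no symbol. *Sirt4* had 3 peaks, none at its promoter, with means of 9.67 to 15.

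None of the 10 peaks with the most normalised reads was at a remodeller. *Chd6*, a chromodomain helicase, had 111, 124 and 110 normalised reads (115 ± 7.81, n = 3), 79 bp upstream of its TSS. *Chd2*, a further member of that family, had 83, 55 and 94 in an intron, 313 bp from another start of the gene. *Arid1a*, a subunit of the BAF complex, had 60, 86 and 70 in an intron 5042 bp downstream. Of the BAF ATPases, *Smarca2* (BRM) had 22, 28 and 36 at its promoter without any CCAAT box in the peak, and *Smarca4* (BRG1) had no listed peak.

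*Arid4a*, a subunit of Sin3 deacetylase complexes, had 270, 223 and 233 normalised reads (242 ± 24.8, n = 3) at the promoter with 9 boxes. The ARID genes outside the BAF complex were otherwise lower, led by the DNA-binding factor *Arid3b* with 34, 49 and 40 and by *Arid5a* with 21, 35 and 30. The 2 smaller *Arid3b* peaks, inside the gene, had means of 6.33 and 4.33.

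Among PHD finger and ING genes, *Ing1*, a reader of H3K4me3, stood out with 326, 448 and 471 normalised reads (415 ± 77.9, n = 3). This peak lay in an intron 2590 bp from the 5' end of the gene but 35 bp from the start of another *Ing1* transcript. A second *Ing1* peak, 401 bp from the 5' end, had 104, 81 and 93, and the weakest had a mean of 6.33. Every value of the intronic peak thus lay above every value at the 5' end. *Phf12*, a Sin3 partner, had 77, 71 and 68, and *Phf19*, a PRC2 accessory protein, had 38, 49 and 51 in an intronic peak without a CCAAT box. Of the bromodomain genes named *Brd*, only *Brd2*, a BET protein, had listed peaks. Its stronger peak had 17, 24 and 48, so that replicate 3 stood above the other 2 libraries. A peak 206 bp from the start of *Brd8*, with 70, 103 and 114, was listed under *Kif20a*.

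Chromobox genes followed. *Cbx5*, which encodes HP1α, a reader of methylated H3K9, had 379, 408 and 459 normalised reads (415 ± 40.5, n = 3). Its peak of 1217 bp held 11 CCAAT boxes, the most of any member, and also covered the start of *Hnrnpa1* in the vicinity, so to which of these genes it belongs cannot be told apart. *Cbx8*, a subunit of Polycomb complex PRC1, had 92, 68 and 74, and all its values lay below those of *Cbx5* in normalised reads. Per kb, *Cbx5* had 341 ± 33.3.

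Among genes of DNA methylation, *Mbd3*, a subunit of the NuRD remodelling and deacetylase complex, had 279, 270 and 321 normalised reads (290.0 ± 27.2, n = 3), with the peak centre 199 bp upstream of the TSS. *Mbd4*, a thymine DNA glycosylase, had 54, 49 and 67, and *Mbd6*, a methyl-CpG binding domain protein, had 17, 41 and 36. All values of this *Mbd3* peak lay above those of the other peaks of this role in normalised reads. *Tet2*, which oxidises methylcytosine, had 5, 9 and 2 in a peak 4842 bp upstream, and no peak was listed at the methyltransferases *Dnmt1*, *Dnmt3a* and *Dnmt3b*.

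Ranked by normalised reads per kb of peak, *Kmt5c* came first with 774 ± 60.2 (n = 3), and all 3 of its values lay above all values of the next, *Prmt5* at 578 ± 20.5. *Ing1* at 576 ± 108, *Kdm4a* at 574 ± 124 and *Prmt1* at 532 ± 22.8 followed and overlapped *Prmt5* or each other. Then came *Kdm4b* at 486 ± 18.8, *Mbd3* at 480 ± 45.1, *Arid4a* at 419 ± 42.9, *Setd5* at 367 ± 130 and the upstream *Kdm6b* peak at 357 ± 66.8. Of the 9 neighbouring pairs in this order, 2 had no overlap between their values. The order by normalised reads without length correction shared 8 of its top 10 peaks, with *Cbx5* and the intronic *Kdm6b* peak in place of *Prmt5* and the upstream *Kdm6b* peak. Those 10 peaks held 48.6% of the summed means of all 99.

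The spread between libraries was examined next. The median coefficient of variation (CV) over the 3 libraries was 18.7% for chromatin gene peaks and 21.3% for all peaks with a symbol. The median CV expected from counting error alone was 19.2% and 22.1%. A CV from only 3 libraries often falls below the true spread. Whether counting alone accounts for the spread therefore cannot be told from these medians. In the 20 chromatin gene peaks with 3 or more CCAAT boxes, the median CV was 10.97% and the median counting error 7.23%. In the 28 without a box they were 36.5% and 35.1%. The CV lay above the counting error in 59 of the 99 peaks (59.6%, against 54.2% of all peaks with a symbol). In the strongest quartile of peaks the median CVs of chromatin gene peaks and of all peaks with a symbol were 15.3% and 13.0%, and in the weakest 45.8% and 40%. Single strong peaks differed. The CV was 21.6% at *Kdm4a*, where the counting error was 4.82%, and 3.88% at *Kdm4b*, where it was 6.53%. Among the 48 chromatin gene peaks with a mean of at least 30, the widest CV was at *Mbd6* (40.4%), followed by *Setdb1* (37.9%; 35, 38 and 17 normalised reads), *Setd5* (35.4%), *Setd1b* (34.3%) and *Kdm6a* (30.3%). The library that stood apart differed among them: replicate 1 was low at *Mbd6* and high at *Setd5*, and replicate 3 was low at *Setdb1* and high at *Setd1b* and *Kdm6a*. Replicate 1 lay at least 1.5-fold above the mean of the other 2 libraries (value + 1) in 9 of the 99 peaks (9.09%) and below it in 12 (12.1%), against 12.3% and 11.8% of all peaks with a symbol.

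Most chromatin gene peaks lay at promoters, at a share close to that of other peaks. Promoter peaks made up 62 of 99 (62.6%, interval 52.8 to 71.5), against 68.4% of all peaks with a symbol. Of these 62, 35 spanned the TSS itself and 41 had a centre within 200 bp of it. Among all 99 peaks these made up 35.4% and 41.4%, against 43.1% and 50.8% of all peaks with a symbol. The median distance from the TSS was 305 bp, against 191 bp for all peaks with a symbol. Of the 37 peaks elsewhere, 17 lay in introns of the gene (45.9%, against 42.8% of such peaks in all) and 18 outside it (48.6%, against 47.6%). Within 1000 bp of another start of the same gene were 7 of the 37 (18.9%, against 20.1%). A start of another gene lay within 1000 bp at 28 of the 99 peaks (28.3%, against 25.1%), and a start of another protein-coding gene at 10 (10.1%, against 12.8%). At such promoters NF-YA occupancy cannot be assigned to either gene. The 3 strongest of the 28 were *Cbx5*, *Prmt1* (beside the noncoding *Gm15545*) and *Setd5*.

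**Figure D3:**
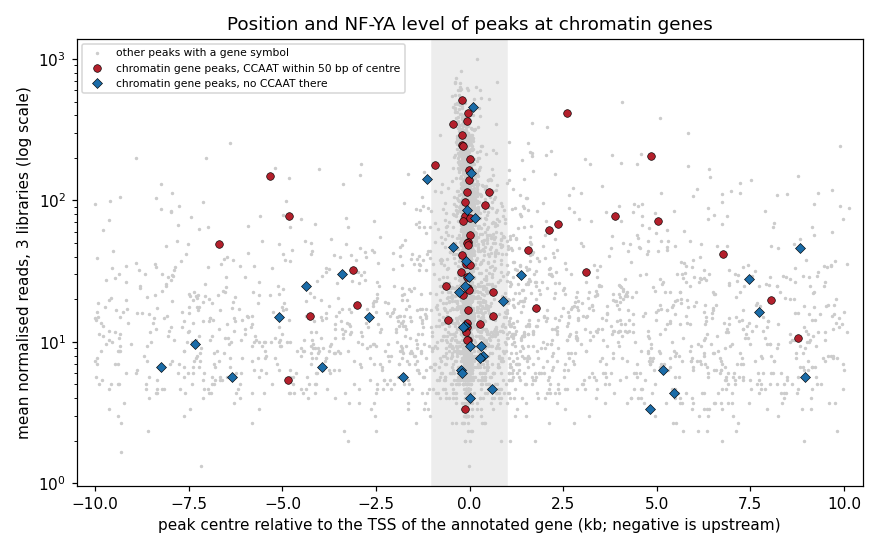
Mean normalised reads over 3 libraries (log scale) against the distance of the peak centre from the TSS of the annotated gene in kb, for 99 chromatin gene peaks (circles with a CCAAT box within 50 bp of the centre, diamonds without) over all other peaks with a symbol (grey dots); the shaded band is the promoter range of 1000 bp to each side. The strong peaks outside the band belong to *Ing1*, *Kdm6b* and *Kmt2e*.

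Promoter peaks of chromatin genes had median levels of 33.5, 34.5 and 36 normalised reads in replicates 1, 2 and 3, and promoter peaks of other genes had 31, 30 and 32. The log2 ratio of these medians was 0.16 ± 0.05 (SD, n = 3 libraries), and per kb it was 0.09. Peaks of chromatin genes away from promoters had medians of 18, 24 and 25, where those of all peaks with a symbol were 12, 13 and 13. The log2 ratio of promoter peaks over peaks elsewhere was accordingly 0.65 ± 0.21 for chromatin genes and 1.29 ± 0.08 for all peaks with a symbol. These are descriptions: peaks are not replicates, and 3 libraries of a single group cannot reach a two-sided exact sign-flip p below 0.25. In the strongest quartile of all 9056 peaks lay 42 of the 99 (42.4%, against 36.1% of peaks with a symbol) and in the weakest 15 (15.2%, against 17.7%).

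More than 1 peak was listed at 20 of the 69 genes (29.0%, interval 19.6 to 40.6), against 18.8% of all genes with a symbol and a peak, and 3 or more at 7 (10.1%, against 3.80%). These 7 were *Kdm6b* with 6 peaks and *Arid3b*, *Ing1*, *Phf20*, *Prmt1*, *Setd1b* and *Sirt4* with 3 each. At 16 of the 20 genes, all values of the strongest peak lay above all values of the second, the exceptions being *Brd2*, *Mbd6*, *Phf20* and *Sirt4*. The strongest peak was the promoter peak at 13 of the 20. How often either holds among all genes with more than 1 peak was not examined, so neither count sets chromatin genes apart. At *Mbd3*, 98.4% of the normalised reads of the gene lay in its promoter peak, and at *Kansl2* 91.6%.

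The CCAAT box, searched as CCAAT on both strands within 50 bp of the peak centre, occurred in 61 of the 99 peaks (61.6%, interval 51.8 to 70.6), against 59.1% of all peaks with a symbol. In promoter peaks it occurred in 42 of 62 (67.7%, against 65.4%) and elsewhere in 19 of 37 (51.4%, against 45.3%). In the whole peak a box was present in 71 of 99 (71.7%, against 72.3%). Chromatin gene peaks thus held the box about as often as peaks at large, within the counting interval. The 28 peaks without any box were mostly weak, and 5 had a mean of at least 20 normalised reads, at *Kdm6a*, *Phf19*, *Brd2*, *Smarca2* and *Kmt2b*.

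Peaks with a box near the centre had higher levels than peaks without. Their medians were 51, 43 and 48 normalised reads in replicates 1, 2 and 3, against 12, 14.5 and 12.5, a log2 ratio of 1.87 ± 0.27 (n = 3 libraries). For all peaks with a symbol this ratio was 1.28 ± 0.06. Among chromatin gene peaks with a mean of at least 10, the log2 ratio was 0.73. Peaks with a box were also longer, with a median of 309 bp against 173.5, and per kb the log2 ratio in chromatin gene peaks was 1.15. By quartiles of level, the share with a box was 2 of 15 in the weakest (13.3%), 8 of 14 (57.1%), 17 of 28 (60.7%) and 34 of 42 in the strongest (81.0%), against 36.6%, 46.2%, 62.2% and 75.3% of all peaks with a symbol in these quartiles. The wide intervals of the lower quartiles, 3.74 to 37.9% in the weakest, come from few peaks.

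**Figure D4:**
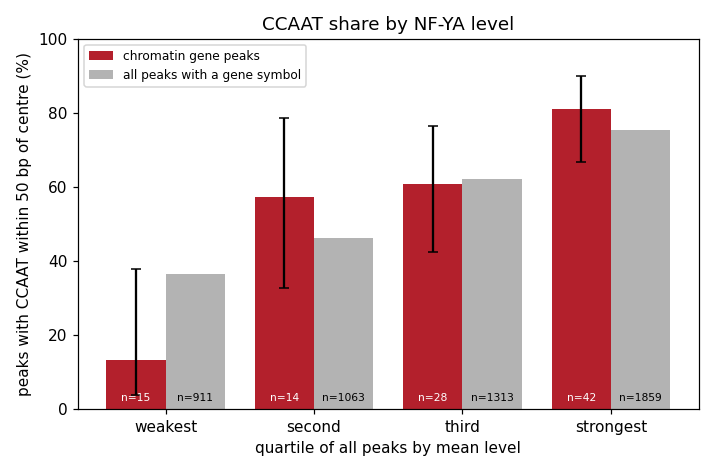
Share of peaks with CCAAT within 50 bp of the centre, in %, by quartile of all 9056 peaks ordered by mean level, for chromatin gene peaks (red, with 95% Wilson intervals) and all peaks with a symbol (grey). The share among chromatin gene peaks goes from 13.3% in the weakest quartile to 81.0% in the strongest.

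The level also went up with the number of boxes in the whole peak. The median of the mean levels was 8.67 normalised reads in the 28 peaks without a box, 20.5 in the 30 with 1, 61.3 in the 21 with 2 and 202 in the 20 with 3 or more. Longer peaks hold more boxes, and the median length rose over these sets from 137 to 194.5, 343 and 580.5 bp. Per kb, the medians were 63.8, 89.1, 202 and 348 normalised reads, so the order of the sets stayed the same. In all peaks with a symbol the medians were 9.33, 19, 45.3 and 116 normalised reads. Peaks with 3 or more boxes made up 20.2% of chromatin gene peaks and 16.9% of all peaks with a symbol.

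**Figure D5:**
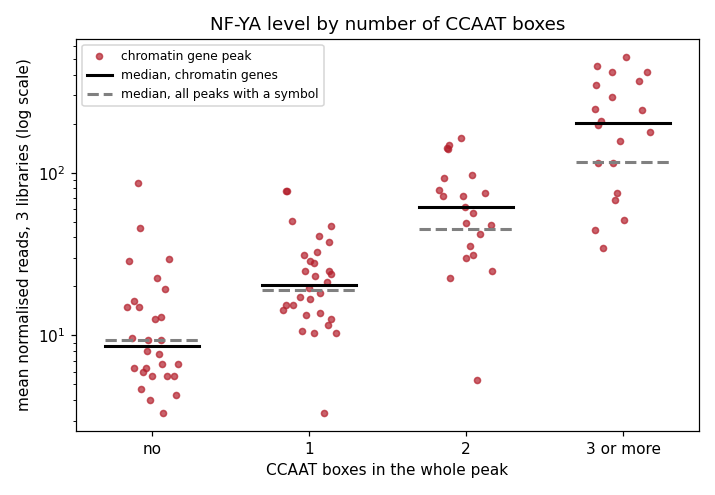
Mean normalised reads over 3 libraries (log scale) of the 99 chromatin gene peaks (points, spread sideways at random) by the number of CCAAT boxes in the whole peak, with their median (black) and the median of all peaks with a symbol (dashed grey). The medians for chromatin genes go from 8.67 without a box to 202 with 3 or more.

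The 62 promoter peaks held 121 boxes, of which 91 lay upstream of the TSS. Of these, 53 lay within 150 bp upstream (43.8% of the 121, where this share was 53.8% for all promoter peaks with a symbol), at a median of 65 bp before the TSS (64 bp for all). On the gene strand were 36 of the 53 boxes (67.9%), against 52.7% of such boxes in all promoter peaks. Without the 9 boxes of *Arid4a* this was 31 of 48 (64.6%). Over all 99 peaks there were 91 pairs of neighbouring boxes, 64 of them in the same orientation (70.3%, against 63.7% for all peaks with a symbol). Same-strand pairs spaced 30 to 32 bp numbered 12 (13.2%, against 9.19%) and those spaced 40 to 42 bp numbered 9 (9.89%, against 6.69%), or 5 of 83 (6.02%) without *Arid4a*. A match of these letters is a description of the sequence and not a measured site.

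Other short motifs were searched in the same windows on both strands. GGGCGG, the core of the GC box bound by SP1, occurred in 37 of 99 peaks (37.4%, against 32.5%). The median GC content of chromatin gene peaks was 61.9%, and that of all peaks with a symbol was 59.4%. CAGCTG, an E-box bound by myogenic factors such as MyoD, occurred in 12 (12.1%, against 9.52%) and TGANTCA, the AP-1 motif, in 6 (6.06%, against 6.30%). The intervals of all 3 shares include the value for all peaks.

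Promoters were then compared with and without reference to peaks. In the window from 250 bp before to 50 bp after the 5' end of the gene, CCAAT occurred at 71 of the 182 chromatin genes (39.0%) and at 39.0% of all protein-coding genes. With a promoter peak, 39 of 54 chromatin genes had the box there (72.2%, interval 59.1 to 82.4), against 74.1% of all genes with a promoter peak. Without a peak, 30 of 113 had it (26.5%, interval 19.3 to 35.4), against 33.3% of all genes without a peak. Of those 113 genes, 10 had at least 2 boxes in the window (8.85%, against 7.92% of all genes without a peak). GGGCGG was present in this window at 63.7% of chromatin genes and 43.0% of all protein-coding genes.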

How the data were processed

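NF-YA CUT&RUN libraries of 3 samples were analysed, and the 3 IgG samples were not analysed here. Per the study's methods and processing notes, the authors trimmed reads (Trimmomatic 0.39), aligned them to mm10 (STAR 2.7.9a), kept unique, deduplicated (Picard 2.25.5), unspliced reads, used MACS2 to call peaks per NF-YA library with the matching IgG library as control, merged these into 1 set, counted reads per peak (featureCounts), normalised them with DESeq2 1.30.0 and annotated peaks to the nearest gene. The deposited unit is a score, namely reads divided by a size factor and rounded. Size factors hide a change shared by all peaks, and peaks were called on the same libraries.

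From there, the value of 1 read per library was estimated by maximum likelihood, and 6 simulations with 9056 peaks each recovered it with a largest error of 0.0569%. Reads in peaks came to about 476991, 226921 and 334615. Only counting error enters the intervals and floors. All 9056 peaks lay within GRCm38.p6 chromosomes. Listed distances matched the gene coordinates listed beside them in 6191 of 6191 cases within 1 bp, a check within the deposited values only. Transcript starts, gene features and the set of protein-coding genes came from GENCODE M21. Printed starts are counted from 1.

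The name rule uses no measured value, but the members and gene lists were chosen with earlier results of these data known. Named were the 10 strongest peaks, the 3 strongest genes of each role, genes with 3 or more peaks, the widest spreads at a mean of at least 30, the *Hdac*, *Cbx*, *Kmt2* and BAF ATPase families, and the genes the study names. The values of 1 gene are not reported here. Alternatives covered promoter limits, windows, a minimum mean of 10, values per kb, scaling and left-out libraries. Python 3.11.15, numpy 2.4.6, pandas 2.3.3, scipy 1.17.1, pysam 0.24.0 and matplotlib 3.10.9 were used.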

Additional observations from a re-analysis of the deposited data

How the results depend on the processing

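Of 40 alternatives over 7 results, 23 left the value within its interval or its spread between libraries, and 17 moved it further. Shares and the CV have no sign to change. Among the alternatives for the log2 ratios, 0 turned the sign. The share of chromatin gene peaks at promoters was 83.8% with a limit of 5000 bp and 73.7% with any transcript of the gene. The share with a CCAAT box was 71.7% over the whole peak, 73.8% among peaks with a mean of at least 10, and 71.0% for the strongest peak of each gene. Counting only promoter peaks, 29.7% of annotated chromatin genes had a peak. The log2 ratio of chromatin gene promoter peaks over other promoter peaks was 0.091 per kb and 0.042 with a mean of at least 10. Promoter peaks over peaks elsewhere gave 0.40 per kb, 0.31 with a mean of at least 10 and 1.15 with a limit of 5000 bp. Peaks with a box over peaks without gave 1.15 per kb, 2.25 with 100 bp to each side, 1.56 in promoter peaks and 0.73 with a mean of at least 10. The causes of these moves were not tested, except that a minimum mean leaves fewer weak peaks by construction. Leaving out each library in turn gave 0.14 to 0.19, 0.52 to 0.71 and 1.75 to 2.01 for these 3 ratios, and 14.6% to 17.7% for the median CV. The strongest peak of each gene for the box, promoter peaks for the CV and the set without genes not acting on chromatin were chosen after seeing the data. No paired analysis was possible because only NF-YA libraries were analysed here. Replicate 2, with the fewest reads in peaks, limits what can be said of weak peaks: 9 of the 99 held at most 3 reads there.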

Other observations

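Peaks near starts of chromatin genes were also listed under another name. For 14 of the 113 genes counted above as without a peak, 16 peaks had their centre within 1000 bp of a transcript start of the gene. Of these peaks, 10 carried no symbol and 6 carried that of another gene. How often this occurs among all protein-coding genes without a listed peak was not examined, so neither count sets chromatin genes apart. A CCAAT box was contained in 11 of the 16, where 72.3% of all peaks with a symbol contained one. The strongest lay at an inner start of *Kat6b*, an acetyltransferase of the MYST family, 181 bp from that start and 19238 bp from the 5' end of the gene. It held 447, 522 and 565 normalised reads (511 ± 59.7, SD, n = 3) and 8 boxes, and ranked 23 among all 9056 peaks. A peak 159 bp from a start of *Hdac4*, a class IIa deacetylase, held 198, 219 and 222 (213 ± 13.1, n = 3) with 3 boxes, and at both genes the 3 libraries were of similar height. Peaks shared with a neighbour lay 255 bp from the start of *Setd3*, named *Ccnk*, with 254, 293 and 278, and 185 bp from a start of *Arid4b*, named *Ggps1*, with 177, 198 and 209. *Setd3*, an actin histidine methyltransferase, is not known as a chromatin modifier. These peaks were found after the values were seen.

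Genes outside the name rule were checked from a list of 75, with chromatin subunits and enzymes and also the lamin genes *Lmna* and *Lmnb1*. Peaks were listed at 34 of them (45.3%), where 19.0% of all protein-coding genes had one. The list was chosen with earlier results of these data known, so this share is a description and no independent support. Expression of these genes in MuSCs was not examined. The strongest were at *Sin3a*, the scaffold of the Sin3 deacetylase complex, with 408, 498 and 583 normalised reads at 4067 bp and 250, 257 and 260 at 1566 bp into the gene. *Gatad2a* and *Gatad2b*, subunits of NuRD, had promoter peaks of 300, 273 and 310 and of 240, 256 and 252. *Actl6a*, an actin-related subunit of BAF, had 131, 161 and 170 at 2293 bp into the gene. *Lmna*, encoding lamin A/C, had 117, 148 and 171 at 6417 bp.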
